A study of Homo sapiens with 2 samples.

Results

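The spliceosomal genes described here are 38 genes for proteins of the Sm and LSm rings, of the U1, U2 and U5 small nuclear ribonucleoproteins (snRNPs) and of the SMN complex. They were taken by symbol from a table of 19362 genes, and all 38 were found. They comprise 7 Sm ring genes, 8 LSm genes, 7 genes for small and 11 for large proteins of the U1, U2 and U5 snRNPs, and 5 genes of the SMN complex. The levels come from RNA sequencing of FTC-133, an established human cell line from a follicular thyroid carcinoma, in 1 library from cells given a control siRNA and 1 library from cells given siRNA against CHI3L1 (genotype labelled CHI3L1 knockdown). CHI3L1 encodes a secreted chitinase-like glycoprotein, and the comparison asks how transcript levels stand when it is silenced. With 1 library a group there is no replicate and no test, so every difference below is one between these 2 libraries. A 95% interval beside a ratio covers counting error only, and may be too narrow because no molecular identifiers are described.

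The control siRNA library held 15837449 reads and the CHI3L1 siRNA library 19467345, and values are in CPM. Their scaling is close to the library totals but not equal to them, as the columns sum to 1001495.5 and 998507. Wherever a pair of values is given, the control siRNA library comes first and the CHI3L1 siRNA library second. CHI3L1 itself had 140 and 48.6 CPM. Of thyroid markers, PAX8 had 82.8 and 71.2 CPM and NKX2-1 had 88.6 and 112 CPM, while TG had 10 and 14 reads and FOXE1 had 1 and 19. SLC5A5, CD3E, CD14 and CDH5 were not analysed here. The remaining markers of fibroblasts, leukocytes and endothelium stood between 0.103 and 7.90 CPM. The part of other cells in the results was not tested. In bulk RNA, fewer cells of a type and less RNA per cell cannot be told apart.

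The spliceosome removes introns from precursor mRNA and is built from snRNPs, each an RNA with its own proteins. The Sm proteins form a ring of 7 different subunits around the U1, U2, U4 and U5 RNAs, and the SMN complex loads that ring. The related LSm proteins form 2 rings that share most subunits: one with LSM8 on U6 RNA in the nucleus, and one with LSM1 that takes part in mRNA decay in the cytoplasm. Sm and LSm proteins are small and consist mainly of the Sm fold. The core of U5, with PRPF8 and the helicase SNRNP200, and the SF3B1 and SF3B3 scaffolds of U2 are among the large proteins of the machine.

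The coding sequences of 3 short members are printed here because they show the contrast on which the results turn, short messages that differed in their ratio between the libraries. The gene of SNRPG lies on chromosome 2, minus strand, 70281362 to 70293771 in GRCh38. SNRPF lies on chromosome 12, plus strand, 95858928 to 95903828. SF3B5 has 1 exon and lies on chromosome 6, minus strand, 144094881 to 144095573. Sequences are from GENCODE release 29, without the stop codon, and capitals mark the start codon.
SNRPG: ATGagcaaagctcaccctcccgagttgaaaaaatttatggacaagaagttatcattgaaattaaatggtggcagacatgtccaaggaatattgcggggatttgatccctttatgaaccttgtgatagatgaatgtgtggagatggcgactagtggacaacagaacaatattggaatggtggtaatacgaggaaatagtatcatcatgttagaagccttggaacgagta
SNRPF: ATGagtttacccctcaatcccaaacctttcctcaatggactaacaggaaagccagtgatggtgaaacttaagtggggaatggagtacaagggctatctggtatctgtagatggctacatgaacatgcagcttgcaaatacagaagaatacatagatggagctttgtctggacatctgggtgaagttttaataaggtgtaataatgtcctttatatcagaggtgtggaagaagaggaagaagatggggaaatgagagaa
SF3B5: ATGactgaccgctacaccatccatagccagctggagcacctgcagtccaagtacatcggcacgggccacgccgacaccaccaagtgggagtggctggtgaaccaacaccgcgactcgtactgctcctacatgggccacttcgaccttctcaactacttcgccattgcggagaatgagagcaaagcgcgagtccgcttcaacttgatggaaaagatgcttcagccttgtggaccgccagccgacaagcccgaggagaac
SNRPG and SNRPF are both Sm ring subunits, with 228 and 258 coding nucleotides at 39.9% and 41.5% GC. SF3B5, a small subunit of the U2 snRNP's SF3b complex, also has 258 coding nucleotides, at 57.8% GC. The CPM ratio of the CHI3L1 siRNA library over the control siRNA library was 0.228 for SNRPG (0.215 to 0.241), 0.714 for SNRPF (0.661 to 0.771) and 0.428 for SF3B5 (0.3998 to 0.458). The 3 intervals did not overlap, and the lowest ratio belonged to the shortest of the 3 sequences. Their annotated transcripts have 625 nt (SNRPG), 693 nt (SF3B5) and 1389 nt (SNRPF), the same order as their ratios. Over all 17 members with at most 450 coding nucleotides, length and log2 fold were less closely related. The Spearman rho was 0.33 with coding length and 0.34 with transcript length. After the length and GC correction described below, the log2 folds were −1.04 (SNRPG), −0.47 (SF3B5) and 0.67 (SNRPF).

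In the CHI3L1 siRNA library, 16 of the 38 genes were at least 1.5-fold lower and 0 were at least 1.5-fold higher, by the log2 fold of CPM plus a pseudocount of 1 CPM. Of all 14815 genes averaging 1 CPM or more, 13.4% were lower by that rule and 7.73% higher. The median log2 fold was −0.32 over the 38 genes and 0.01 over all tested genes. Of the 15 Sm and LSm genes 11 were lower, of the 7 other small snRNP protein genes 3, of the 5 SMN complex genes 2, and of the 11 large snRNP protein genes 0. At 2-fold, 12 of the 38 genes were lower, against 4.41% of all tested genes. The counting interval of the ratio lay wholly below 1 for 21 members, wholly above 1 for 8, and held 1 for 9. The same shares over all tested genes are not given here.

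**Figure D1:**
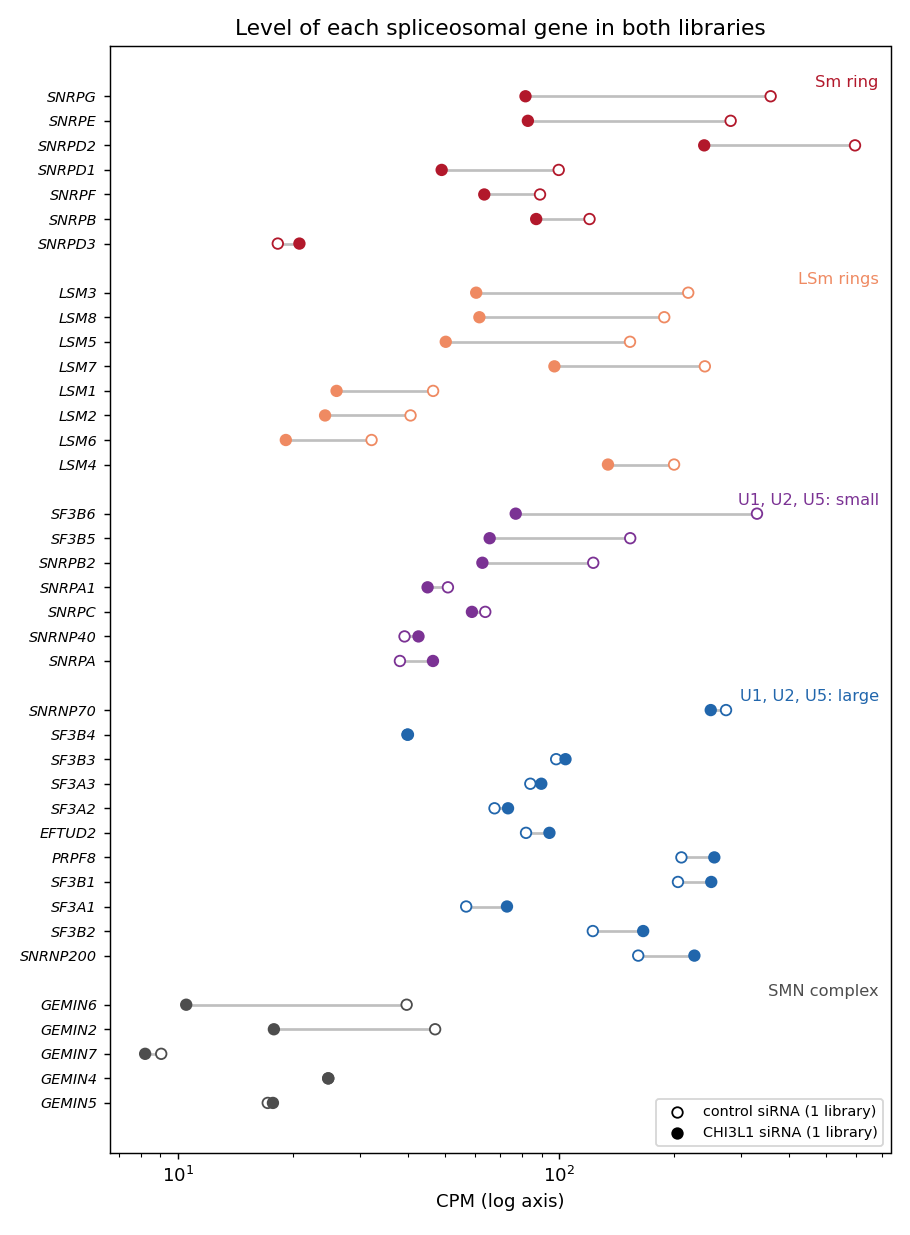
CPM of each of the 38 genes (log axis) in the control siRNA library (open points) and the CHI3L1 siRNA library (filled points), 1 library each, grouped by role and ordered by fold. The grey lines of SNRPG, SF3B6, LSM3 and GEMIN6 are long and run to lower values, while those of the large U1, U2 and U5 proteins are short.

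Small Sm and LSm genes stood apart from the large snRNP protein genes. The median log2 fold was −1.005 over the 15 Sm and LSm genes and 0.20 over the 11 large ones, a difference of −1.21. In 160 of the 165 pairs of 1 small and 1 large gene, the small gene had the lower fold. The other 5 pairs all involve SNRPD3. Across the table, 696 of 835 tested coding genes with at most 450 coding nucleotides had folds below 0. Of 7516 with at least 1200 coding nucleotides, 5103 had folds above 0. The share of such pairs over those genes is not given here, so the count is not particular to the spliceosome. Summed over the 15 small genes, the level was 2681 and 1098 CPM. Summed over the 11 large genes, it was 1399 and 1620 CPM. The members were chosen with earlier results of these data known, so the difference of medians is a description.

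Within the Sm ring, the 7 subunits did not share a ratio. SNRPG (Sm G) had 358 and 81.5 CPM, a log2 fold of −2.12. SNRPE (Sm E), on chromosome 1 from 203861603 to 203870550, had 281 and 82.7 CPM and a ratio of 0.294 (0.278 to 0.311). SNRPD2 (Sm D2), the Sm gene with the most reads in both libraries, had 596 and 240 CPM and a ratio of 0.402 (0.389 to 0.417). These 3 genes were more than 2-fold lower by their whole counting intervals. SNRPD1 (Sm D1) had 99.6 and 49.1 CPM, and the interval of its ratio of 0.493 ran from 0.455 to 0.535. SNRPF (Sm F) had 89.0 and 63.5 CPM, a log2 fold of −0.48. SNRPB, which encodes Sm B and B′, had 120 and 86.9 CPM, with a ratio of 0.725 (0.678 to 0.774). Both were lower than in the control siRNA library beyond counting error, without reaching 1.5-fold. SNRPD3 (Sm D3) had the fewest reads of the ring, 289 and 406 (18.3 and 20.8 CPM), and the interval of its ratio of 1.14 held 1 (0.978 to 1.33). Exons of SNRPD3 overlap those of GUCD1 on the opposite strand, which had 1442 and 1964 reads, and those of GGT1 on the same strand, which had 10 and 9. Without the strand setting of the counting, reads of SNRPD3 and GUCD1 cannot be told apart in the 321 nt where their exons overlap.

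Per kilobase of annotated transcript, the order of the ring genes' levels in the control siRNA library was SNRPD2 (661 CPM per kb), SNRPG (573), SNRPE (298), SNRPB (104), SNRPF (64.1), SNRPD1 (20.3) and SNRPD3 (10.4). In the CHI3L1 siRNA library the levels were 266, 130, 87.8, 75.3, 45.8, 10.01 and 11.8 CPM per kb in the same order of genes, so the last 2 changed places. The highest level was 63.8 times the lowest in the control siRNA library and 26.6 times in the CHI3L1 siRNA library. SNRPD1's place rests on an annotated transcript of 4909 nt, of which 4389 nt are 3′ UTR.

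All 8 LSm genes had a log2 fold below 0, and 7 were at least 1.5-fold lower. Of 835 tested coding genes with at most 450 coding nucleotides, 696 had folds below 0 and 46.1% were at least 1.5-fold lower. LSM3, a subunit of both rings, had 218 and 60.5 CPM, the lowest ratio of the family (0.278, 0.260 to 0.297). LSM8, which marks the nuclear ring on U6 RNA, had 188 and 61.7 CPM and a ratio of 0.328 (0.306 to 0.350). LSM5 had 153 and 50.4 CPM, with a ratio of 0.329, and LSM7 had 241 and 97.0 CPM, with a ratio of 0.403. These 4 genes were more than 2-fold lower. LSM1, which marks the cytoplasmic decay ring, had 46.7 and 26.1 CPM and a ratio of 0.558 (0.498 to 0.626). The intervals of LSM1 and LSM8 did not overlap. LSM2 had 40.7 and 24.3 CPM and LSM6 had 32.2 and 19.2 CPM, with log2 folds of −0.72 each. LSM4, the longest LSm protein here at 139 residues, had 200 and 134 CPM, a log2 fold of −0.57, just short of the 1.5-fold rule. The median log2 fold was −0.82 over LSM1 to LSM7 and −1.30 over LSM2 to LSM8, 2 sets that share 6 genes. Per kilobase of annotated transcript, LSM7 had the highest level in both libraries (455 and 183 CPM per kb) and LSM6 the lowest (14.2 and 8.49). LSM8 was second in the control siRNA library, at 144 CPM per kb, and LSM4 second in the CHI3L1 siRNA library, at 70.3. These places rest on the annotated transcript chosen for each gene. That of LSM7 has 529 nt, and that of LSM6 has 2259 nt, of which 1882 nt are 3′ UTR. That of LSM3 has 3815 nt, of which 3006 nt are 3′ UTR.

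The U1 proteins differed little between the libraries. SNRNP70 (U1-70K), which binds the first stem-loop of U1 RNA, had 273 and 249 CPM and a ratio of 0.912 (0.875 to 0.9502). SNRPA, which binds another U1 stem-loop, had 38.2 and 46.6 CPM and a ratio of 1.22 (1.10 to 1.36). SNRPC, a zinc finger protein that helps U1 bind the 5′ splice site, had 63.9 and 59.0 CPM, a log2 fold of −0.11. None of the 3 reached 1.5-fold. SNRPC has 477 coding nucleotides. Other tested coding genes with more than 450 and up to 600 had a median log2 fold of −0.32 and quartiles of −0.65 and 0.01. The fold of SNRPC lies between those quartiles.

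The SF3a and SF3b subunits of U2, which hold U2 at the branch point, split by size. SF3B6 (p14), which contacts SF3B1 near the branch point, had 330 and 76.8 CPM and a ratio of 0.233 (0.220 to 0.247). It lies on chromosome 2, minus strand, 24067584 to 24076443. SF3B5 had 153 and 65.7 CPM, a log2 fold of −1.21. Their large partners were not lower by the rule. SF3B1, the scaffold that is often mutated in myelodysplastic syndromes, had 205 and 250 CPM and a ratio of 1.22 (1.17 to 1.28). SF3B2 had 122 and 166 CPM and a ratio of 1.36 (1.28 to 1.43). SF3B3 had 98.1 and 104 CPM and SF3B4 had 40.1 and 40.0 CPM, and both intervals held 1. Of the SF3a trimer, SF3A1 had 57.0 and 72.9 CPM (log2 fold 0.35), SF3A2 had 67.6 and 73.3 CPM (0.12) and SF3A3 had 83.9 and 89.7 CPM (0.09). Exons of SF3A2 overlap those of PLEKHJ1 on the opposite strand, which had 1861 and 1347 reads against 1069 and 1430 of SF3A2. The 2 other U2 proteins, which bind a U2 stem-loop together, differed from each other. SNRPB2 had 123 and 62.8 CPM and a ratio of 0.512 (0.476 to 0.5504), and its partner SNRPA1 had 51.0 and 45.1 CPM and a ratio of 0.884 (0.803 to 0.974). Their coding sequences have similar lengths, 675 and 765 nt, and their intervals did not overlap.

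All 4 U5 genes had a log2 fold above 0 as deposited, and 0 reached 1.5-fold. For PRPF8, EFTUD2 and SNRNP200 that direction turned under at least 1 of the length and GC corrections, with SNRNP200 close to 0. Folds were above 0 for 7580 of all 14815 tested genes. They were above 0 for 5103 of the 7516 tested coding genes with at least 1200 coding nucleotides. SNRNP200 (Brr2), the helicase that unwinds U4 from U6, had 161 and 226 CPM, the highest ratio of the 38 genes (1.40, 1.34 to 1.47). PRPF8 (Prp8), at the catalytic centre, had 209 and 255 CPM and a ratio of 1.22 (1.17 to 1.27). EFTUD2 (Snu114), a GTPase, had 81.8 and 94.2 CPM, and SNRNP40, a WD repeat protein, had 39.3 and 42.7 CPM. The interval of EFTUD2 lay above 1 (1.07 to 1.24) and that of SNRNP40 held 1.

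In the SMN complex, which assembles Sm rings, GEMIN2 and GEMIN6 were lower and the other members were not by the rule. GEMIN6, which has an Sm-like fold and pairs with GEMIN7, had 39.8 and 10.5 CPM and a ratio of 0.264 (0.225 to 0.310). GEMIN7 had 9.04 and 8.21 CPM, with 143 and 160 reads and a ratio of 0.908 (0.720 to 1.15). The intervals of these partners did not overlap. Exons of GEMIN7 overlap those of PPP1R37 and MARK4 on the same strand, and PPP1R37 had 1435 and 1949 reads, so the reads of GEMIN7 are uncertain. For the 7 other members with overlapping exons, the overlapping gene had fewer reads than the member in both libraries. GEMIN2, which holds the Sm subunits before they close on RNA, had 47.2 and 17.8 CPM and a ratio of 0.378 (0.332 to 0.430). The large subunits GEMIN4 (24.8 CPM in both libraries) and GEMIN5, which recognises the snRNA (17.2 and 17.7 CPM), had log2 folds of −0.00 and 0.04.

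**Figure D2:**
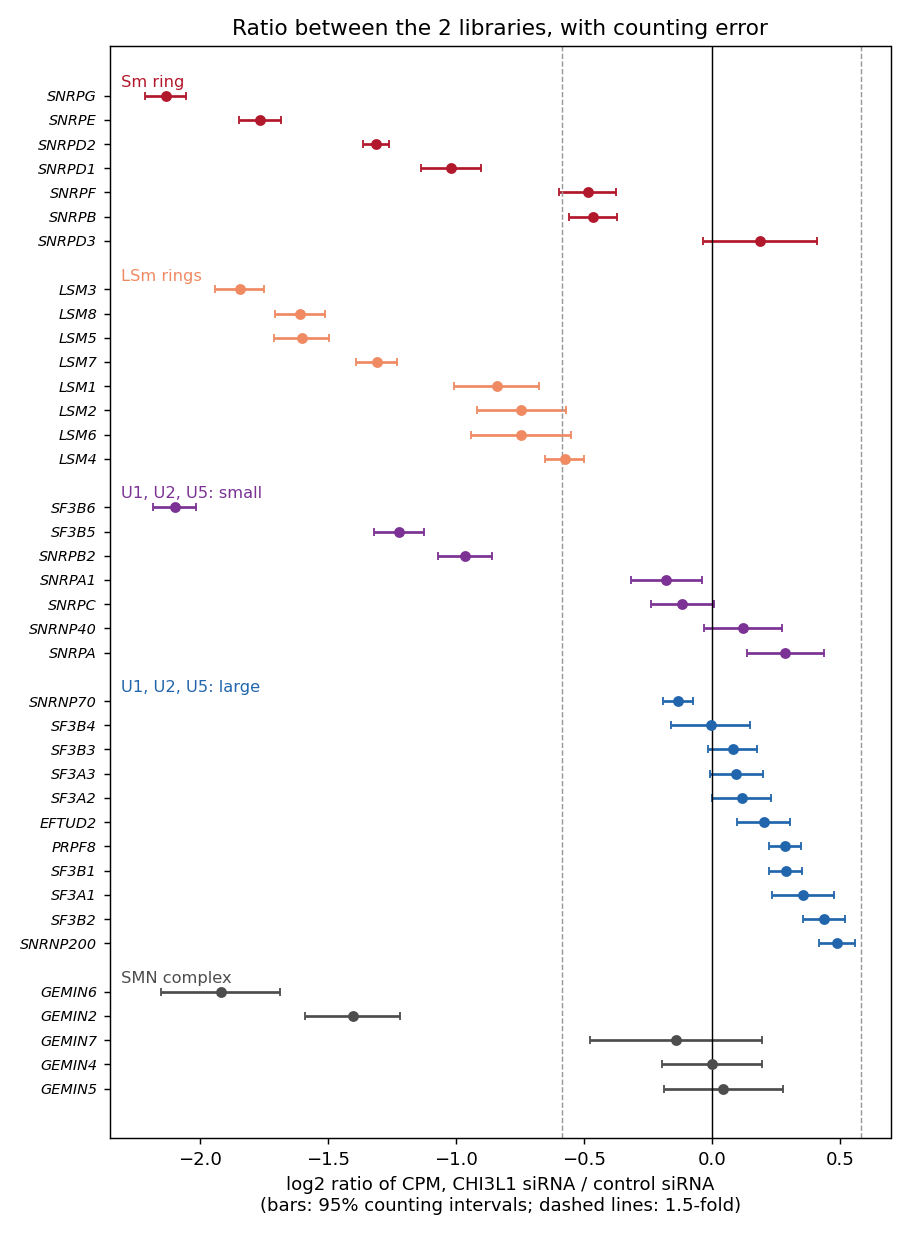
Log2 ratio of CPM, CHI3L1 siRNA over control siRNA, for each gene by role, with 95% counting intervals (bars) and 1.5-fold marked by dashed lines. Sm, LSm and the small U2 genes SF3B6, SF3B5 and SNRPB2 reach far below 0, while the large U1, U2 and U5 genes lie between the dashed lines.

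Short genes were lower across the whole table, and this stands beside every count above. Of 835 tested coding genes with at most 450 coding nucleotides, 46.1% were at least 1.5-fold lower and 2.16% higher, with a median log2 fold of −0.54. Of the 17 members in that class, 13 were lower and 0 higher, with a median of −1.21. Of 7516 tested coding genes with at least 1200 coding nucleotides, 4.91% were lower and 11.5% higher, with a median of 0.18. All 11 large snRNP protein genes are in that class, 0 passed 1.5-fold, and their median of 0.20 is near that of the class. Across the 38 members, the Spearman rho of log2 fold with coding length was 0.78 and with transcript length 0.55. Across 12660 tested coding genes these were 0.46 and 0.46. The members of each set share the same 2 libraries and their depths.

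**Figure D3:**
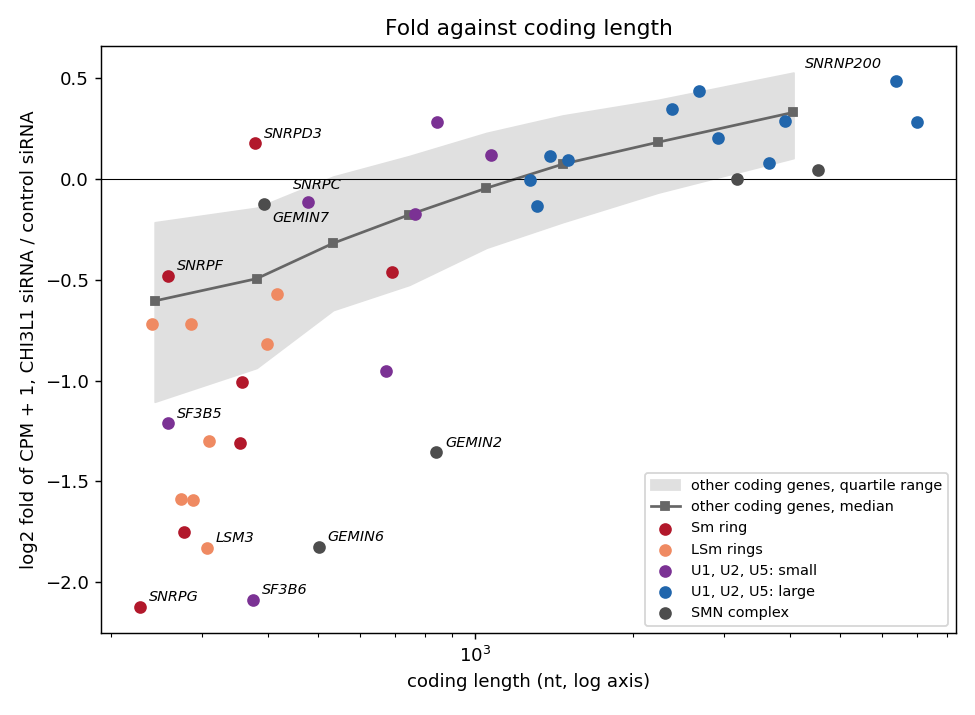
Log2 fold of CPM plus 1 against coding length (nt, log axis) for the 38 genes (points, coloured by role) and for the other tested coding genes in length classes (line, median; shading, quartile range). The large snRNP genes lie within or close to the shading, SNRPG, SF3B6, LSM3, GEMIN6 and GEMIN2 lie far below the shading, and SNRPD3 lies above it.

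With the trend of folds with transcript length, coding length and GC content subtracted, the gap between the groups was smaller. The median log2 fold was then −0.52 over the 15 Sm and LSm genes and 0.00 over the 11 large genes, a difference of −0.52 in place of −1.21. By the 1.5-fold rule 10 members were lower, against 6.82% of the tested coding genes, and 1 was higher, against 6.6%. The 10 were SNRPG, SNRPE, SNRPD1 and SNRPD2 of the Sm ring, LSM3, LSM5 and LSM8, and SF3B6, GEMIN2 and GEMIN6. SF3B6 had a corrected log2 fold of −1.25, SNRPG of −1.04 and GEMIN2 of −0.87. GEMIN6 and LSM3 had −1.73 and −1.64, but their annotated transcripts of 3728 and 3815 nt consist mostly of 3′ UTR. With coding length and coding GC content alone in the trend, GEMIN6 had −1.39, LSM3 −1.09 and SNRPD1 −0.36, so SNRPD1 was not lower by the rule there. LSM1, LSM2, LSM6, LSM7, SF3B5 and SNRPB2 were no longer 1.5-fold lower with the correction for both lengths and GC content, with log2 folds between −0.52 and −0.07. LSM7 (−0.74) and SF3B5 (−0.62) were still lower with coding length and coding GC content alone. The member that was higher was not the same gene under both corrections. With both lengths and GC content it was SNRPF, at 0.67 against −0.48 before, and SNRPD3 had 0.53. With coding length and coding GC content it was SNRPD3, at 0.64, and SNRPF had 0.43. Of the U5 genes, PRPF8 had −0.19 and −0.23 under these 2 corrections, EFTUD2 −0.14 under each, SNRNP200 0.0080 and −0.020, and SNRNP40 0.32 and 0.13, so folds above 0 turned below 0 for PRPF8 and EFTUD2 under both and for SNRNP200 under the second. SNRPA had 0.48 and SNRPC 0.43 with both lengths and GC content, and SF3B3 had −0.42. SF3B3 and GEMIN5 also turned below 0 under both corrections, and SF3A1 and SF3A3 under the first only. SNRPF, SNRPA1, SNRPC and GEMIN7 turned above 0 under both, and SNRNP70 and SF3B4 under the first only. The median of the fitted trend was added back after the subtraction. Signs of values near 0, as for SF3B4 and SNRNP200, depend on that constant.

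**Figure D4:**
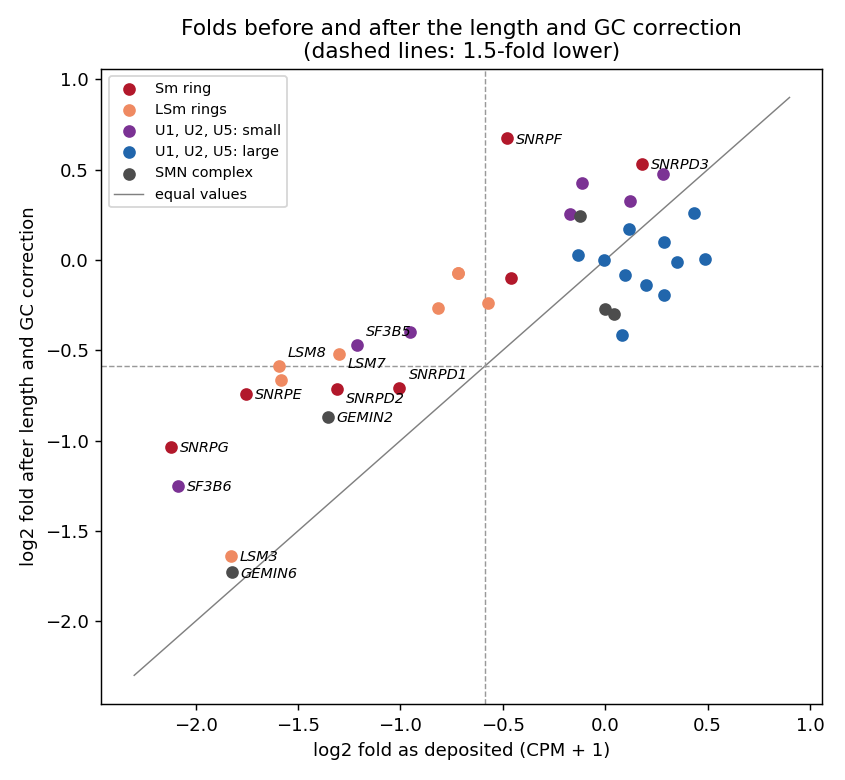
Log2 fold of each gene as deposited (horizontal axis) and after the length and GC correction (vertical axis), with equal values on the grey line and 1.5-fold lower marked by dashed lines. GEMIN6 and LSM3 lie near the grey line, SNRPG and SF3B6 lie well above it and still below the dashed line, and SNRPF moves above 0.

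Among 117 other genes of the pathway in 9 lists, 8 were at least 1.5-fold lower and 2 higher, against 13.4% and 7.73% of all tested genes, with a median log2 fold of 0.06. The 7 other genes with an Sm or LSm fold held 2 lower ones. One of them, NAA38, whose product is a subunit of an N-terminal acetyltransferase, had 170 and 46.4 CPM (log2 fold −1.85), and SNRPN, a paralog of SNRPB, had the highest fold of that list at 0.20. Of 14 other U2 and branch-site genes 1 was lower, the small SF3b subunit PHF5A, at 95.3 and 38.3 CPM (−1.29), and DDX42 had the highest fold (0.51). In the lists of U4/U6 and tri-snRNP genes (15), PRP19 complex genes (15), minor spliceosome genes (9) and other snRNP assembly genes (13), the numbers lower were 1, 2, 1 and 1, and 0 were higher. Their lowest folds belonged to PPIH (−0.63), CWC15 (−0.72), SNRNP25 (−0.68) and SMN2 (−0.67), and their highest to SART1 (0.58), AQR (0.52), SNRNP35 (0.51) and DDX20 (0.54). SMN2 has a near-identical copy, SMN1, so its reads are uncertain. Of 13 SR protein genes 0 passed in either direction, with folds from −0.50 (SRSF7) to 0.26 (SRSF8). Of 23 hnRNP genes 0 were lower and 1 was higher, with folds from −0.53 (HNRNPC) to 0.72 (HNRNPUL2). The 8 mRNA decay partners of the cytoplasmic LSm ring all had folds above 0, from 0.06 (DCP2) to 0.63 (PATL1), the 1 that was 1.5-fold higher. All 8 have at least 1260 coding nucleotides, and 5103 of 7516 tested coding genes with at least 1200 had folds above 0. The 7 genes of these lists with at most 450 coding nucleotides had a median of −0.68, and 4 of them were lower.

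RefSeq promoters (GRCh38.p14) were matched for 34 of the 38 genes, and the 250 bases before the first listed start were searched on both strands. The letters CCGGAAG, a core that ETS factors recognise, were found in 16 of the 34 (47.1%) and in 8.82% of 27305 gene promoters. They were in 6 of 13 members that were 1.5-fold lower and in 10 of 21 that were not. GGGCGG was in 5 of 13 and 15 of 21, CCAAT in 5 and 6, GCATGCGC in 2 and 1, and TATAAA in 0 and 1 of these, and the differences were not tested. Shares for CCAAT were 32.4% of members and 33.0% of all, for GGGCGG 58.8% and 42.3%, for GCATGCGC 8.82% and 2.81%, and for TATAAA 2.94% and 11.1%. The 27305 promoters were not limited to tested or coding genes, while all members are tested coding genes. Whether any of these letters, CCGGAAG included, are more frequent in members than in other tested genes was not tested. The motifs were picked with the results known, and matching letters are not shown to be bound. The 100 bases before the first listed RefSeq start are printed for the Sm gene with the lowest fold and the U5 gene with the highest, with CCGGAAG or its reverse complement in capitals, both on the minus strand and both free of annotated exons. The SNRPG window precedes the first start that RefSeq lists, and lies inside the GENCODE gene span given above, in an intron of transcripts that start further upstream.
SNRPG, chr2:70293459-70293558: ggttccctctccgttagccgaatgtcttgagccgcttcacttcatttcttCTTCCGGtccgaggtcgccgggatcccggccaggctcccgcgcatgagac
SNRNP200, chr2:96305547-96305646: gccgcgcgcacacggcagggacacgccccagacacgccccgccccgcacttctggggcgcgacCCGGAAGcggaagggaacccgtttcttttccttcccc
Each window held 1 match, so these letters were present in the windows of the members with the lowest and the highest ratio.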

How the data were processed

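The authors deposited 1 table of CPM values for 19362 Ensembl gene identifiers in 2 libraries. FastQC, MultiQC, Trimmomatic, HISAT2, featureCounts and GRCh38 are named in the submitters' processing notes. For the normalisation tool and strand setting, the sources used here give nothing. Deposited values are whole reads with 0.001 added, multiplied by 0.0632 or 0.0513 CPM per read (100% of values within 0.001 read), and column totals are 1001495.5 and 998507. Reads recovered this way gave exact (Clopper-Pearson) 95% intervals of ratios. No count model was run. Per the labels, libraries were made from total RNA with a TruSeq kit, and the time after transfection is not stated.

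Log2 folds use CPM plus 1, and genes averaging 1 CPM or more were compared by size alone (called tested here). Symbols were found for 19265 identifiers in the gene name table, and GENCODE release 29 named others. Lengths and GC content are of 1 principal transcript a gene. The correction subtracts cubic splines (5 degrees of freedom a term) fitted to coding genes that are no members, and took up 35.8% of the variance of their folds. The median of the fitted trend over those genes is then added back. Overlaps used bedtools 2.31.1, and the rest Python 3.11.15 with scipy 1.17.1 and patsy 1.0.2. Steps were tested on simulated data. All 38 members are named, with the lowest and highest of each other list, CHI3L1 and overlapping genes. Members and lists were chosen with earlier results of these data known.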

Additional observations from a re-analysis of the deposited data

How the results depend on the processing

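The difference of medians between small Sm and LSm and large snRNP genes was negative under each setting run. It was −1.07 at a pseudocount of 10 CPM, −1.07 with all members split at 400 residues, −1.05 without the 10 members with overlapping exons, −0.52 with the length and GC correction, and −0.34 with coding length and coding GC content alone, a setting chosen after seeing the data. The small genes' median was −0.89 at a pseudocount of 10 CPM, −0.86 without overlapping members, and −0.52 and −0.36 with the corrections, and the large genes' median 0.000596 and −0.0202 with them. Members at least 1.5-fold lower were 10 (length and GC) and 11 (coding length) with the corrections, and between 12 and 17 otherwise. Members higher were 1 with either correction (SNRPF with length and GC, SNRPD3 with coding length and coding GC) and 0 otherwise. For 14 members the whole counting interval was past 1.5-fold, and without overlapping members 12 of 28 were lower. LSM6 turned from −0.72 to 0.11 with the coding length correction. Centring on the median of all tested genes (0.01) added 1 lower member, LSM4, and a trimmed mean of log ratios (shift 0.01) added 0. Both corrections subtract length and GC terms together, and the part of each term was not tested. No paired analysis was possible because each group has 1 library. Members had between 143 and 9418 reads in a library, and GEMIN7, with the fewest, had the widest interval relative to its ratio.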

Other observations

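Among the 17 members with at most 450 coding nucleotides, those with higher levels had lower folds. The Spearman rho of log2 fold with mean CPM was −0.77 over these 17 genes and −0.32 over all 835 tested coding genes of that length. Over all 12660 tested coding genes it was 0.06. SNRPG, SF3B6, SNRPE and LSM3 combine high levels with low folds, whereas SNRPD3 and GEMIN7 have the lowest levels and the highest folds of the 17. These values share their libraries, and CPM enters both measures, so the relation is given as a description. Exons of SNRPD3 and of GEMIN7 overlap those of genes with more reads, so their levels and folds are uncertain. The rho without them is not given here.

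Several members have processed copies in the genome, and read placement among copies is uncertain. GENCODE release 29 names 20 pseudogenes for SNRPG, 18 for SNRPC, 9 for SNRPE and fewer for 8 other members. SNRPG and SNRPE were more than 2-fold lower, and SNRPC, with a ratio of 0.923, was not. The 2 SNRPG pseudogenes in the table had 30 and 16 reads together (control siRNA, then CHI3L1 siRNA), against 5660 and 1589 of SNRPG. The 2 SNRPE pseudogenes in the table had 19 and 4 reads, against 4446 and 1612 of SNRPE. SF3B6, LSM8, LSM5, LSM7, SF3B5 and GEMIN6 have no pseudogene named for them there and were also more than 2-fold lower. The part of copies in the ratios was not tested.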
